A study of Mus musculus with 6 samples.

Results

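Interferon-stimulated genes, the genes that cells transcribe when an interferon binds its receptor, were examined in hematopoietic stem cells (HSCs) of mice given ferulic acid (FA) over a long term. A list of 50 such genes was matched by gene symbol to the deposited expression table, which lists 27198 genes. Each of the 50 was found once, and each passed the filter on low counts that kept 16520 genes for testing. RNA of sorted HSCs was sequenced in 3 control (Ctrl) libraries and 3 long-term FA (l-FA) libraries. All mice were wild-type male C57BL/6 mice of 8 to 10 weeks. Ctrl mice received vehicle, and l-FA mice were injected with FA into the peritoneum at 50 mg/kg, once a day over 30 days. HSCs were sorted as Lineage- Sca1+ c-Kit+ CD34- CD135- bone marrow cells, and their RNA was copied into cDNA and amplified before sequencing. The number of mice behind a library is not given in the sources used here, so n counts libraries, and the p-values measure the spread between these libraries, which may be technical.

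Type I interferons bind a receptor of the chains IFNAR1 and IFNAR2, and the kinases JAK1 and TYK2 then activate a complex that holds STAT2 and IRF9 and binds the interferon-stimulated response element (ISRE) in promoters. Interferon-gamma, the type II interferon, signals through IFNGR1 and IFNGR2, and its target promoters carry the gamma-activated sequence (GAS). The induced genes encode sensors of foreign nucleic acid, effectors that block viruses at each step of their cycle, and GTPases of the guanylate-binding and immunity-related families that attack the vacuoles of intracellular pathogens. In HSCs, interferons are known to move resting cells into cycle, and stem cells are known to hold part of this gene set at a constant level without infection.

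The libraries held 19287735 to 20380610 counts, and the 50 members together took 0.349% to 0.369% of the counts in Ctrl and 0.481% to 0.491% in l-FA. Every member had counts in every library, with mean counts from 68.0 (Mx2) to 8017 (Ly6e). Values below are TMM-normalized CPM, which are counts scaled to the size of each library, unless FPKM is named, and fold changes are l-FA over Ctrl. Over the members, the median chi-square of a pair of libraries was 0.563 to 1.56 within a group and 64.5 to 88.5 across the groups, where counting error alone gives 0.455. Over all genes the same medians were 0.883 to 1.08 and 8.20 to 8.84. The chi-square was taken on counts scaled only to library totals, and at a given fold change it grows with the count. The values of the members and of all genes are therefore not comparable in size.

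Interferon-stimulated genes were mostly higher in HSCs of l-FA-treated mice. At an adjusted p under 0.05 in edgeR's quasi-likelihood test, 38 of the 50 members were higher in l-FA, 1 was lower (Gbp3) and 11 did not pass. Of all 16520 genes tested, 25.5% were higher and 25.0% were lower by the same rule, and 50.5% passed in either direction. With a fold change above 2 as well, 11 members were higher and 0 were lower, where 6.68% and 5.10% of all genes tested were. Among the 12156 genes whose mean count reached that of the lowest member, 26.2% were higher and 2.46% were higher by more than 2-fold. The groups did not overlap for 42 members, 40 of them higher in l-FA, where 60.3% of all genes tested did not overlap and 30.4% were higher without overlap. The log2 fold change was above 0 in 47 members, where it was in 50.3% of all genes tested. Its median over the members was 0.42, with a range from -0.15 to 2.26, and its median over all genes tested was 0.00345. The summed level of the members was 3801, 3612 and 3746 CPM in Ctrl and 4763, 4696 and 4704 CPM in l-FA, a ratio of 1.27. An exact two-sided permutation test of 3 against 3 libraries cannot go below p = 0.1, and was therefore not used for single genes. In bulk libraries, a different number of cells of a type and a different amount of RNA per cell cannot be told apart.

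**Figure D1:**
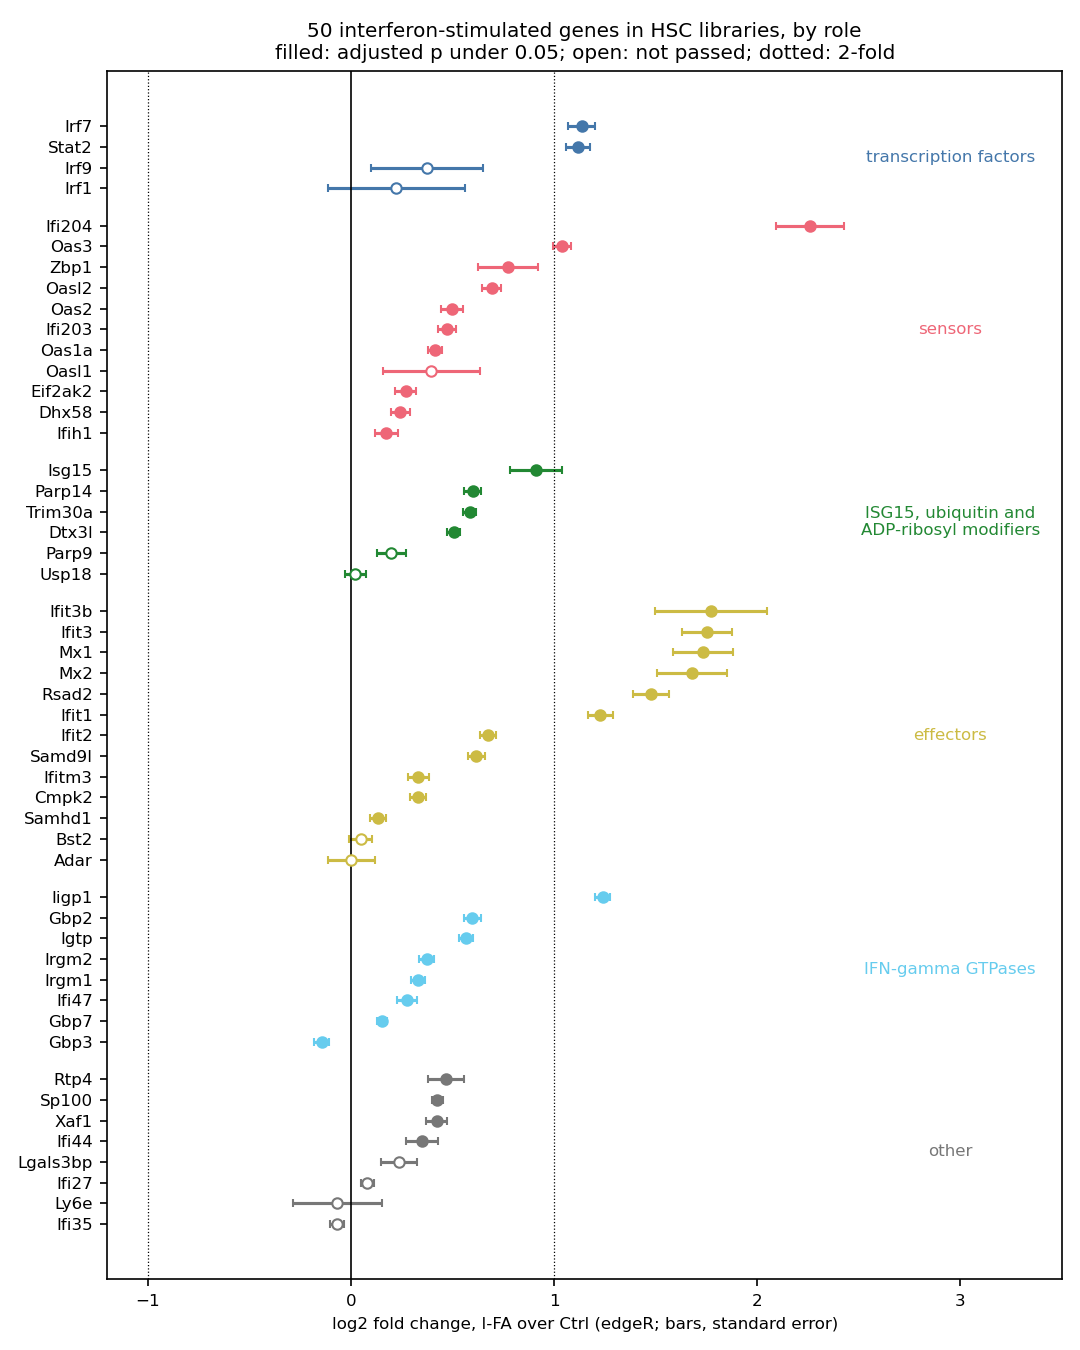
Log2 fold change (x axis, l-FA over Ctrl, edgeR) of each of the 50 members (y axis), grouped by role, with bars for the standard error (SE). Filled points passed an adjusted p of 0.05 and open points did not, and 11 points lie above the dotted 2-fold line on the right while Gbp3, at -0.15, is the only filled point below 0.

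The promoters of the members were searched for the letters of the ISRE and the GAS. RefSeq windows from 250 bases before to 50 bases after a gene's start were held for 37 of the 50 members, on the GRCm38.p6 build. The ISRE core was searched as GAAA, 2 bases of any kind and GAAA, or on the other strand as TTTC, 2 bases of any kind and TTTC, and the GAS core as TTCNNNGAA, which reads the same on both strands. ISRE letters stood in the windows of 20 of the 37 members (54.1%) and of 1079 of 27025 genes with a window (3.99%). GAS letters stood in 12 of the 37 (32.4%) and in 9.55% of all genes with a window. ISRE letters were found for 6 of 7 GTPases, 5 of 7 sensors, 6 of 11 effectors, 2 of 3 modifiers, 1 of 4 transcription factors and 0 of 5 other members. Of 31 matches, which may overlap each other, 26 lay before the start, the median match began 59 bases before it, and 9 members held at least 2. A match of letters is a description and not a measured binding site. Below, the 200 bases before the start are shown for Isg15, with the longest run of matches, for the paralog pair Ifit3 and Ifit3b, for Oas3, the sensor past 2-fold whose window holds the letters, for Bst2, which has the letters and did not pass, and for the neighbouring GTPase genes Gbp2 and Gbp3, which moved in opposite directions. Each is written 5′ to 3′ on the strand of its gene, with the ISRE letters in capitals.
Isg15, chr4:156200819-156201018, minus strand: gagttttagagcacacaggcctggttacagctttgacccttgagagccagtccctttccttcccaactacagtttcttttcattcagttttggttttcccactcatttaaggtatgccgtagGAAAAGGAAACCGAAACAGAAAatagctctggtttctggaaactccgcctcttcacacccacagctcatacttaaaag
Ifit3, chr19:34583329-34583528, plus strand: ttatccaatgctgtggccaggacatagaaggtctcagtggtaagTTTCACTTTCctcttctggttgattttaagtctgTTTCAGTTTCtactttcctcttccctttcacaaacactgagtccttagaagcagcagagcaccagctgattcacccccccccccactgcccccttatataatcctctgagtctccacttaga
Ifit3b, chr19:34607757-34607956, plus strand: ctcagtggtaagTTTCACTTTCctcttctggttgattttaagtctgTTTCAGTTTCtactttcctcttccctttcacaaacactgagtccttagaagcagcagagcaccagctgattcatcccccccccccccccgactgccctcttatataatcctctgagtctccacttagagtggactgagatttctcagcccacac
Oas3, chr5:120777660-120777859, minus strand: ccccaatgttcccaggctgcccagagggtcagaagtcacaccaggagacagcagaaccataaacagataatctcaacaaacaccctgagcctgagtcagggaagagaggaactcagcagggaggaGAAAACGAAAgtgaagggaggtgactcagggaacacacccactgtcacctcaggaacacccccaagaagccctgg
Bst2, chr8:71537473-71537672, minus strand: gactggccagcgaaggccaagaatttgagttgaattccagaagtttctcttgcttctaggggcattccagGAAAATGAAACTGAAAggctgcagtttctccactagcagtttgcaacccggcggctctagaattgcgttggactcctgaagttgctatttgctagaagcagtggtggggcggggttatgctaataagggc
Gbp2, chr3:142620463-142620662, plus strand: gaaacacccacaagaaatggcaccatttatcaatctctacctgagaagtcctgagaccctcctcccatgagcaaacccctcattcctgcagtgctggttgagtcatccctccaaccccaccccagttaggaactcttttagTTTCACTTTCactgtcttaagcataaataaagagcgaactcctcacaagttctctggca
Gbp3, chr3:142559844-142560043, plus strand: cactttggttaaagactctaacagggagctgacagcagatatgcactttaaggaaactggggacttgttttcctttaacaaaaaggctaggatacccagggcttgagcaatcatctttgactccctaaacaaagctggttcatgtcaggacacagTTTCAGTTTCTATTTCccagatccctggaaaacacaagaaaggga

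In Isg15 the capitals hold 3 overlapping matches that begin 78, 72 and 66 bases before the start. Within the bases shown, the promoters of Ifit3 and Ifit3b share an unbroken run of 119 bases, which holds both matches of each gene. Gbp3, the member that was lower, has 2 overlapping matches beginning 45 and 39 bases before the start site shown. They lie close to the place of the single match of Gbp2 at 59 bases. Another RefSeq window of Gbp3, at a later start site, held no ISRE letters. Of the 20 members with ISRE letters, 18 were higher and 6 were above 2-fold, with a median log2 fold change of 0.52 and a range from -0.15 to 1.77. Of the 17 members whose window had no such letters, 11 were higher and 1 was above 2-fold, with a median of 0.37 and a range from -0.07 to 1.14. Outside the list, 407 tested genes with a window held ISRE letters, and 32.9% of them were higher with a median of 0.091, beside 27.9% and 0.007 among the 10154 without. ISRE letters stood in promoters of members that differed widely in fold change, from Ifit3b to Bst2 and Gbp3.

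The 4 transcription factors of the interferon response differed among themselves. Irf7, the factor that amplifies type I interferon production (ENSMUSG00000025498, chromosome 7 from 140842619 to 140846394 in the table's GRCm39 coordinates), had 26.4, 27.1 and 30.8 CPM in Ctrl and 61.8, 60.8 and 62.5 CPM in l-FA. The l-FA libraries lay close together and above every Ctrl library, and the log2 fold change was 1.14 (SE 0.066, adjusted p = 4.64e-05, edgeR), where SE is the standard error. Stat2 (ENSMUSG00000040033, chromosome 10 from 128106428 to 128128718), the STAT that is particular to type I and III interferon signalling, had 45.6, 41.8 and 39.7 CPM in Ctrl and 94.6, 88.1 and 93.0 CPM in l-FA. Stat2 rose by 1.12 on the log2 scale (SE 0.060, adjusted p = 3.69e-05, edgeR), with no overlap of the groups. Irf9, the DNA-binding partner of STAT2, had 113, 64.3 and 106 CPM in Ctrl and 103, 97.7 and 166 CPM in l-FA. Ctrl 2 was 1.64 times below and l-FA 3 was 1.61 times above the nearest library of the same group, the groups overlapped, and the difference did not pass (0.37, SE 0.28, adjusted p = 0.305, edgeR). Irf1, a factor induced by interferon-gamma, had 48.0, 49.95 and 116 CPM in Ctrl and 78.1, 86.0 and 85.4 CPM in l-FA. Ctrl 3 was 2.32 times above the other Ctrl libraries, and Irf1 did not pass with it (0.22, adjusted p = 0.622, edgeR), whereas without it the log2 fold change was 0.76 (adjusted p = 0.0006, edgeR).

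Of the 11 sensors, 10 were higher and 1 did not pass, with a median log2 fold change of 0.47 and a summed level that was 1.44 times that of Ctrl. Ifi204, a DNA-binding protein of the p200 family, showed the largest log2 fold change of all members. It had 1.72, 1.23 and 1.66 CPM in Ctrl and 8.19, 7.53 and 6.46 CPM in l-FA. The lowest l-FA library lay well above the highest Ctrl library, and the log2 fold change was 2.26 (SE 0.17, adjusted p = 0.000112, edgeR). The gene lies on chromosome 1 from 173574859 to 173594509 (ENSMUSG00000073489), and 10.7% of its 100-base stretches occur in another gene, mostly Ifi211, so part of its counts may belong to that paralog. Oas3, an oligoadenylate synthetase whose product activates RNase L to degrade RNA (ENSMUSG00000032661, chromosome 5 from 120891163 to 120915726), had 48.6, 45.6 and 45.8 CPM in Ctrl and 93.3, 99.1 and 94.8 CPM in l-FA. The groups were far apart for their spread, with a log2 fold change of 1.04 (SE 0.044, adjusted p = 1.58e-05, edgeR). Zbp1, a sensor of left-handed nucleic acid that can start necroptosis, had 5.42, 7.29 and 7.68 CPM in Ctrl and 12.2, 10.6 and 12.02 CPM in l-FA. Zbp1 rose by 0.77 on the log2 scale (SE 0.15, adjusted p = 0.00472, edgeR).

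The other sensors rose by less. The oligoadenylate synthetase genes Oas1a and Oas2 rose by 0.41 and 0.50 on the log2 scale, and Oasl2, a synthetase-like gene, rose by 0.69. Ifi203, which lies in the same p200 cluster as Ifi204, rose by 0.47. Among the cytoplasmic sensors of double-stranded RNA, Eif2ak2 (the kinase PKR, which halts translation) rose by 0.27, Dhx58 (LGP2) by 0.24 and Ifih1 (MDA5) by 0.17. Ifih1 was close to the threshold (adjusted p = 0.0376, edgeR) and lost the call without a filter on low counts (adjusted p = 0.0651, edgeR). The call was also lost with the replicate number as a block (adjusted p = 0.0621, edgeR). Leaving out Ctrl 1, Ctrl 3, l-FA 1, l-FA 2 or l-FA 3 lost it as well (adjusted p = 0.058 to 0.112, edgeR). Oasl1, a repressor of Irf7 translation, had 17.0, 15.8 and 17.0 CPM in Ctrl and 13.7, 25.7 and 26.2 CPM in l-FA. The library l-FA 1 lay below all Ctrl libraries and the other l-FA libraries above them, and the difference of 0.40 did not pass (SE 0.24, adjusted p = 0.215, edgeR), whereas without l-FA 1 it was 0.66 (adjusted p = 0.00162, edgeR). Of Oas1a, 40.9% of the 100-base stretches occur in Oas1g as well, so reads could be split between them.

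Of the 6 genes of ISG15, ubiquitin and ADP-ribosyl modification, 4 were higher and 2 did not pass, with a median log2 fold change of 0.55. Isg15 (ENSMUSG00000035692, chromosome 4 from 156283912 to 156285253), the ubiquitin-like modifier that is conjugated to proteins in the interferon response, had 3.75, 3.48 and 3.97 CPM in Ctrl and 8.05, 6.73 and 6.31 CPM in l-FA. The groups did not overlap, and Isg15 rose by 0.91 on the log2 scale (SE 0.13, adjusted p = 0.00139, edgeR), below the 2-fold limit. Its mean count of 108 was the fourth lowest among the members. Parp14, an ADP-ribosyltransferase, had 38.4, 39.9 and 38.9 CPM in Ctrl and 60.5, 58.7 and 58.1 CPM in l-FA, a log2 fold change of 0.60 (SE 0.040, adjusted p = 7.97e-05, edgeR). Trim30a, a ubiquitin ligase that restrains inflammatory signalling, had 60.1, 60.9 and 59.9 CPM in Ctrl and 88.4, 91.7 and 91.1 CPM in l-FA, a log2 fold change of 0.58 (SE 0.033, adjusted p = 4.18e-05, edgeR). In both genes the spread within a group was small beside the gap between groups. Dtx3l, a ubiquitin ligase that forms a complex with PARP9, rose by 0.51 on the log2 scale. Parp9 itself had 84.2, 86.5 and 87.9 CPM in Ctrl and 96.7, 109 and 90.3 CPM in l-FA, which did not overlap but missed the threshold (0.20, SE 0.071, adjusted p = 0.0568, edgeR). Parp9 passed in DESeq2 (adjusted p = 0.0140), with upper-quartile scaling (adjusted p = 0.0372, edgeR) and without l-FA 3 (adjusted p = 0.0169, edgeR). Usp18, the protease that removes ISG15 and blocks IFNAR2, had a log2 fold change of 0.02 (SE 0.052, adjusted p = 0.777, edgeR), with overlapping groups.

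Antiviral effectors held 6 of the 11 members above 2-fold. Of 13 effectors, 11 were higher and 2 did not pass, and the median log2 fold change was 0.67. Ifit3b and Ifit3, paralogs of the family that binds foreign RNA ends, led this group. Ifit3b (ENSMUSG00000062488, chromosome 19 from 34585370 to 34590801) had 2.45, 2.04 and 1.15 CPM in Ctrl and 6.76, 5.19 and 7.31 CPM in l-FA. Ctrl 3 was 1.77 times below the other Ctrl libraries, and the log2 fold change was 1.77 (SE 0.27, adjusted p = 0.00204, edgeR), and 1.51 to 2.01 with each library left out in turn. Ifit3 (ENSMUSG00000074896, chromosome 19 from 34560931 to 34566131) had 6.72, 7.02 and 5.12 CPM in Ctrl and 21.3, 20.5 and 21.7 CPM in l-FA. It rose by 1.75 on the log2 scale (SE 0.13, adjusted p = 9.73e-05, edgeR). These paralogs share 31.7% of the 100-base stretches of Ifit3 and 27.4% of those of Ifit3b, so their counts are not independent.

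Mx1 (ENSMUSG00000000386, chromosome 16 from 97248235 to 97264107) encodes a dynamin-like GTPase against influenza virus, which C57BL/6 mice carry in a truncated form. Mx1 had 2.29, 2.52 and 3.16 CPM in Ctrl and 8.67, 9.72 and 8.16 CPM in l-FA. The log2 fold change was 1.73 (SE 0.15, adjusted p = 0.000192, edgeR). Its neighbour Mx2 rose by 1.68, from 1.61 ± 0.351 to 5.16 ± 0.271 CPM (SD, n = 3 in each group). Rsad2 (viperin), which makes a chain-terminating nucleotide, rose by 1.48, from 17.2 ± 1.63 to 47.7 ± 3.496 CPM. Ifit1 rose by 1.23, from 18.8 ± 1.10 to 44.1 ± 1.48 CPM. None of these genes had overlapping groups. The remaining risers among the effectors were Ifit2 (0.67), Samd9l (0.62), the interferon-induced transmembrane protein gene Ifitm3 (0.33), the nucleotide kinase gene Cmpk2 (0.33) and the dNTP hydrolase gene Samhd1 (0.13). Samhd1 lost its call with the replicate number as a block (adjusted p = 0.0667, edgeR). It also lost the call without Ctrl 1 (adjusted p = 0.0781, edgeR), Ctrl 2 (0.0784) or l-FA 1 (0.0581). Adar, the enzyme that edits adenosine in double-stranded RNA, had 149, 155 and 158 CPM in Ctrl and 163, 125 and 174 CPM in l-FA. Both extremes of Adar were l-FA libraries, and its log2 fold change was 0.0010 (SE 0.12, adjusted p = 0.995, edgeR), or 0.14 without l-FA 2 (adjusted p = 0.0489, edgeR). The tetherin gene Bst2 differed by 0.05 (SE 0.056, adjusted p = 0.522, edgeR), and the 2 ISRE matches of its promoter are shown above.

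**Figure D2:**
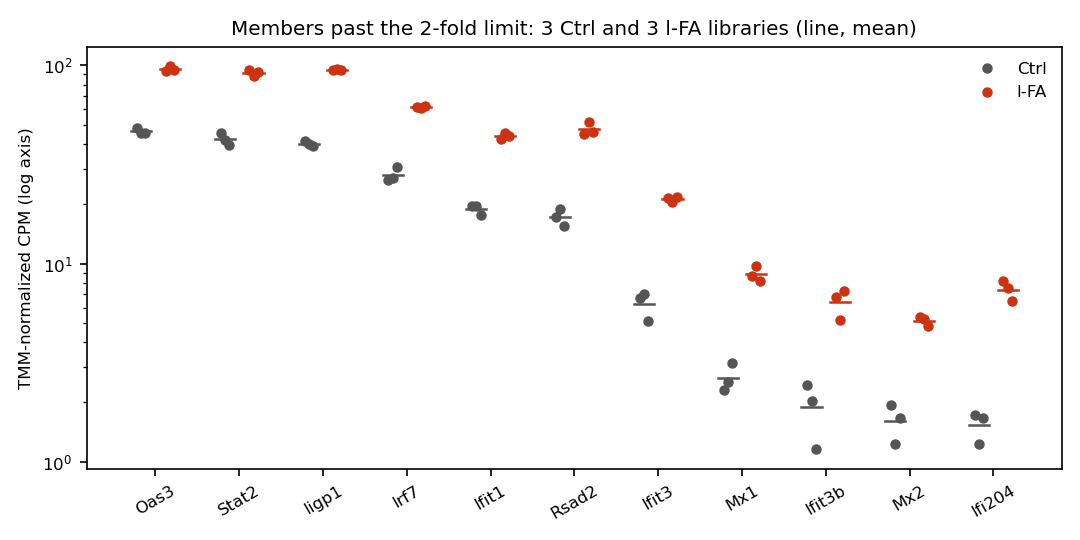
CPM after TMM normalization (y axis, log scale) of the 11 members above 2-fold (x axis) in each of the 3 Ctrl and 3 l-FA libraries, with a line for each group's mean. For each of these genes all l-FA points lie above all Ctrl points, and the group means run from 1.54 CPM in Ctrl for Ifi204 to 95.8 CPM in l-FA for Oas3.

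All 8 GTPases of the interferon-gamma response passed the test, 7 higher and 1 lower, with a median log2 fold change of 0.35 and a summed level 1.29 times that of Ctrl. Iigp1 (Irga6, ENSMUSG00000054072, chromosome 18 from 60509099 to 60525706), which coats the vacuole of Toxoplasma, had 41.8, 40.3 and 39.0 CPM in Ctrl and 95.1, 95.4 and 95.0 CPM in l-FA. It was the single GTPase above 2-fold, with a log2 fold change of 1.24 and the lowest adjusted p of all members (SE 0.039, adjusted p = 5.35e-06, edgeR). Gbp2, a guanylate-binding protein gene (ENSMUSG00000028270, chromosome 3 from 142326363 to 142343769), had 59.0, 63.9 and 60.9 CPM in Ctrl and 95.8, 91.5 and 90.9 CPM in l-FA. Gbp2 rose by 0.60 (SE 0.044, adjusted p = 0.000107, edgeR), with no overlap. Igtp (Irgm3) had 92.8, 92.4 and 87.6 CPM in Ctrl and 132, 137 and 135 CPM in l-FA, a log2 fold change of 0.56 (SE 0.035, adjusted p = 5.83e-05, edgeR). Igtp overlaps Irgm2 in the table, and how reads of overlapping genes were counted is not given in the sources used here. Irgm2 rose by 0.37, Irgm1 by 0.33, Ifi47 (Irg47) by 0.28 and Gbp7 by 0.15. Irgm1 and Igtp belong to the regulatory members of the family, which keep the effector GTPases such as Iigp1 off the cell's own membranes.

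Gbp3 (ENSMUSG00000028268, chromosome 3 from 142265787 to 142278970) went the other way. It had 84.9, 82.4 and 87.1 CPM in Ctrl and 74.9, 77.1 and 78.0 CPM in l-FA. The groups did not overlap, and Gbp3 fell by 0.15 on the log2 scale (SE 0.037, adjusted p = 0.0165, edgeR), which is 0.904 times the Ctrl level. The call was lost without l-FA 1 (-0.11, adjusted p = 0.0731, edgeR), without l-FA 2 (-0.14, adjusted p = 0.0577, edgeR) and in a test against a 1.2-fold change. Gbp3 shares 0.694% of its 100-base stretches with Gbp7.

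The 8 remaining members showed the smallest differences, with 4 higher, 4 not passed, a median log2 fold change of 0.29 and summed levels that overlapped between the groups. Rtp4, a chaperone gene for receptors, had 24.1, 21.2 and 19.2 CPM in Ctrl and 29.4, 29.2 and 30.7 CPM in l-FA, a log2 fold change of 0.47 (SE 0.089, adjusted p = 0.00484, edgeR). Sp100, a nuclear body protein gene, had 141, 147 and 142 CPM in Ctrl and 192, 191 and 193 CPM in l-FA, a log2 fold change of 0.42 (SE 0.026, adjusted p = 5.87e-05, edgeR). Xaf1, an apoptosis-promoting gene, had 25.6, 26.7 and 25.6 CPM in Ctrl and 35.0, 33.8 and 35.5 CPM in l-FA, a log2 fold change of 0.42 (SE 0.050, adjusted p = 0.000674, edgeR). In these 3 genes every l-FA library was above every Ctrl library. Ifi44 rose by 0.35. Ly6e, a membrane protein gene and the member with the most counts, had 514, 389 and 341 CPM in Ctrl and 451, 453 and 283 CPM in l-FA, so that the spread within each group exceeded the difference of -0.07 (SE 0.22, adjusted p = 0.821, edgeR). Lgals3bp (0.24, adjusted p = 0.0627, edgeR) and Ifi27 (0.08, adjusted p = 0.0730, edgeR) missed the threshold and passed in DESeq2 (adjusted p = 0.00319 and 0.0381). Ifi35 had a log2 fold change of -0.07 (adjusted p = 0.138, edgeR).

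Set side by side, the median log2 fold change was 0.75 for the transcription factors, 0.67 for the effectors, 0.55 for the modifiers, 0.47 for the sensors, 0.35 for the GTPases and 0.29 for the other members. The effectors spread most widely, with an interquartile range from 0.33 to 1.68, while that of the GTPases ran from 0.25 to 0.57 and that of the sensors from 0.33 to 0.73. By counts, 11 of 13 effectors, 10 of 11 sensors and 7 of 8 GTPases were higher, and 6, 2 and 1 of them were above 2-fold. Differences between these role groups were not tested, because members were chosen with earlier results known and genes are not replicates.

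**Figure D3:**
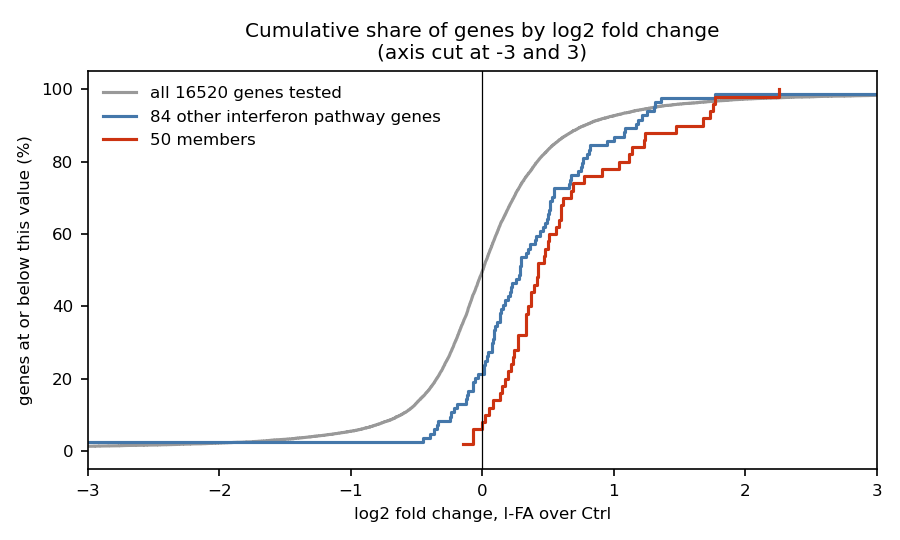
Share of genes (y axis, percent) at or below each log2 fold change (x axis, l-FA over Ctrl, drawn from -3 to 3) for the 50 members, 84 further interferon pathway genes and all 16520 genes tested. Of the 84 pathway genes, 50 are themselves interferon-stimulated genes. The members' line lies to the right of the others over most of its range, with a median of 0.42 beside 0.29 for the pathway genes and 0.00345 for all genes.

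Per length, the members ranged widely in level, and the members above 2-fold were among those at low levels. The highest mean FPKM was that of Ifitm3, with 233, 221 and 255.2 FPKM in Ctrl and 326, 309 and 307 FPKM in l-FA. Ifitm3 rose by 0.33 on the log2 scale (SE 0.052, adjusted p = 0.00225, edgeR), and its level lay well above that of the next member. Lgals3bp followed with 63.5, 65.0 and 74.1 FPKM in Ctrl and 89.1, 73.8 and 88.8 FPKM in l-FA. Ifi27 had 65.7, 64.8 and 69.1 FPKM in Ctrl and 75.5, 74.6 and 72.6 FPKM in l-FA, which overlapped the range of Lgals3bp. Bst2 had 59.1, 51.3 and 56.2 FPKM in Ctrl and 61.5, 61.0 and 59.2 FPKM in l-FA. Ly6e had 61.3, 46.3 and 40.9 FPKM in Ctrl and 57.1, 57.0 and 35.6 FPKM in l-FA, so that its order against Bst2 was within the spread. Of these 5 genes, 1 passed the test. At least 20 FPKM was reached by 11 members, of which 0 were above 2-fold, and among the 2776 genes tested at that level 6 (0.216%) were higher by more than 2-fold. The 11 members above 2-fold had mean FPKM from 0.833 (Mx2) to 12.0 (Ifit1), with a median of 4.43, beside a median of 15.0 for the other 39. Across the 50 members, Spearman's rho between mean FPKM and log2 fold change was -0.57, and across all genes tested it was -0.15. These are descriptions across genes that share the same 6 libraries, and genes are not independent replicates.

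Members that lie next to each other in the genome did not all differ by the same amount. In the Ifit cluster on chromosome 19, between 34528094 and 34627409, all 4 members rose, by 0.67 (Ifit2), 1.75 (Ifit3), 1.77 (Ifit3b) and 1.23 (Ifit1). On chromosome 12, Rsad2 (from 26492745) rose by 1.48 and Cmpk2 (to 26529836) by 0.33. In the Oas cluster on chromosome 5, between 120868398 and 121045584, the log2 fold changes were 0.50 (Oas2), 1.04 (Oas3) and 0.41 (Oas1a), all past the threshold. The Gbp cluster on chromosome 3, between 142236103 and 142343769, held Gbp7 (0.15), Gbp3 (-0.15) and Gbp2 (0.60). On chromosome 16, Parp14, Dtx3l and Parp9 lay between 35653244 and 35792975 with 0.60, 0.51 and 0.20, of which Parp9 did not pass.

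Overlap of gene models and single libraries touched some members. The table gives 18 members a range that overlaps another listed gene, and the strand setting of the counting is not given in the sources used here. Of the 32 members without overlap, 27 were higher, 1 was lower and 10 were above 2-fold, with a median log2 fold change of 0.54. A library at least 1.5 times from both others of its group occurred in 5 members (Irf1, Irf9, Oasl1, Ifit3b and Ly6e), of which 1 was higher. Of the other 45, 37 were higher and 1 was lower, with a median of 0.47.

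Genes that make or carry the interferon signal were examined with a list of 97 further pathway genes. That list also holds 50 interferon-stimulated genes that are not members. Of the 97, 86 are in the table and 84 were tested. Of the 84 tested, 41 were higher (48.8%) and 7 were lower (8.33%), beside 25.5% and 25.0% of all genes tested. Their median log2 fold change was 0.29. The 50 interferon-stimulated genes of the list, described below, held 26 of the 41 that were higher and 4 of the 7 that were lower. The 10 ligand genes of the list are absent from the table under the symbols searched, so they could not be analysed. Among listed genes with a type I interferon symbol, Ifnab (ENSMUSG00000100079), named after its values were seen, had 0 counts in each Ctrl library and 12, 13 and 11 counts in l-FA. Ifnab passed the filter on low counts only through the l-FA libraries, where it is high, so its p-value is not given. Against a floor of 3 counts per library it was at least 3.79-fold higher. Its pattern, 0 counts in every Ctrl library and at least 11 in every l-FA library, was shared by 127 genes tested. Type I interferon genes are closely similar in sequence, so that reads of Ifnab are uncertain in their assignment. Ifna13 and Ifnz had at most 1 count in a library.

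The receptor chains moved in different directions. Ifnar1 had 60.5, 63.6 and 61.9 CPM in Ctrl and 90.7, 79.8 and 82.1 CPM in l-FA, and rose by 0.44 on the log2 scale (SE 0.056, adjusted p = 0.000883, edgeR). Ifnar2 had 186, 192 and 180 CPM in Ctrl and 217, 208 and 190 CPM in l-FA, with overlapping groups (0.14, adjusted p = 0.0633, edgeR), and it passed in DESeq2 (adjusted p = 0.0125) and without l-FA 3 (adjusted p = 0.00890, edgeR). Ifngr1, the ligand-binding chain for interferon-gamma, had 225, 215 and 217 CPM in Ctrl and 160.0, 160.1 and 162 CPM in l-FA, and fell by 0.45 (SE 0.027, adjusted p = 5.37e-05, edgeR). Ifngr2 had 57.6, 56.0 and 53.6 CPM in Ctrl and 54.7, 57.3 and 56.6 CPM in l-FA, and did not pass (0.01, adjusted p = 0.829, edgeR). The type I chain Ifnar1 was higher and the type II chain Ifngr1 lower, each without overlap. Of the kinases, Jak1 had 465, 478 and 458 CPM in Ctrl and 548, 557 and 566 CPM in l-FA and rose by 0.25 (adjusted p = 0.000269, edgeR). Tyk2 had 135, 139 and 137 CPM in Ctrl and 148, 142 and 154 CPM in l-FA, a difference of 0.11 at the threshold (adjusted p = 0.0474, edgeR) that was lost with RLE scaling (adjusted p = 0.0512, edgeR) and in further alternative fits.

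Among interferon regulatory factors outside the list, Irf5 and Irf2 rose by 1.08 and 0.50 on the log2 scale. Irf3, the factor activated directly by the sensors, had 61.4, 66.9 and 67.7 CPM in Ctrl and 68.5, 73.6 and 73.3 CPM in l-FA and did not pass (0.14, adjusted p = 0.0733, edgeR), though it did without l-FA 1 (adjusted p = 0.0437, edgeR). Irf8, a factor of monocyte and dendritic cell development, had 205, 111 and 222 CPM in Ctrl and 245, 217 and 250.1 CPM in l-FA, and Ctrl 2 lay below all others (0.41, adjusted p = 0.210, edgeR). Of the negative regulators, Socs1 had 8.91, 8.63 and 9.74 CPM in Ctrl and 10.9, 10.7 and 12.9 CPM in l-FA and rose by 0.34 (adjusted p = 0.0342, edgeR), Socs3 rose by 0.66, and the phosphatase gene Ptpn11 fell by 0.19. Socs1 lost the call without Ctrl 1 (adjusted p = 0.0870, edgeR), Ctrl 2 (0.0950) or l-FA 3 (0.0839). Ptpn11 lost it without Ctrl 2 (adjusted p = 0.0833, edgeR), Ctrl 3 (0.0514), l-FA 1 (0.104) or l-FA 3 (0.0816) and without a filter on low counts (0.0510). Of the sensors and adaptors upstream of interferon production, 4 of 12 were higher and 0 were lower, a share of 33.3% beside the 25.5% of all genes tested. Of these 4, Tlr3 (0.72, adjusted p = 0.0499, edgeR) and Sting1 lost the call in several alternative fits, Tlr3 with the replicate block among them (adjusted p = 0.0640, edgeR). Rigi, the RNA sensor RIG-I, had 81.7, 83.1 and 85.8 CPM in Ctrl and 114, 115 and 116 CPM in l-FA and rose by 0.46 (adjusted p = 9.46e-05, edgeR). Its adaptor gene Mavs rose by 0.30. The DNA sensor gene Cgas had 61.4, 58.9 and 60.8 CPM in Ctrl and 48.5, 56.1 and 63.2 CPM in l-FA and did not pass (-0.11, adjusted p = 0.370, edgeR). Sting1, its partner, had 76.1, 74.3 and 71.5 CPM in Ctrl and 93.8, 77.4 and 86.4 CPM in l-FA, a difference of 0.22 near the threshold (adjusted p = 0.0448, edgeR) that was lost without a filter on low counts (adjusted p = 0.0762, edgeR).

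Of the 50 further interferon-stimulated genes in the pathway list, 26 were higher (52%), 4 were lower (8%) and 20 did not pass. Their median log2 fold change was 0.44. Of all genes tested, 25.5% were higher and 25.0% were lower. By more than 2-fold, 9 of the 50 were higher and 2 were lower, where 6.68% and 5.10% of all genes tested were. Ifi208, another p200 gene, had 9, 9 and 6 counts in Ctrl and 87, 72 and 75 counts in l-FA, a log2 fold change of 3.18 (SE 0.20, adjusted p = 6.10e-05, edgeR). Slfn1, a gene of the Schlafen family linked to T cell quiescence, had 13, 21 and 19 counts in Ctrl and 0 in each l-FA library, at least 6.24-fold lower against a floor of 3 counts per library. Gbp11 had 17, 13 and 14 counts in Ctrl and 0 in each l-FA library, at least 5.17-fold lower. Such a pattern, 0 counts in every l-FA library and at least 11 in every Ctrl library, was shared by 95 genes tested. Slfn1 and Gbp11 passed the filter on low counts only through the Ctrl libraries. Ly6a, which encodes the sort marker Sca-1 and is itself induced by interferon, had 53.2, 32.7 and 49.2 CPM in Ctrl and 75.1, 78.5 and 76.8 CPM in l-FA. It rose by 0.77 on the log2 scale (SE 0.17, adjusted p = 0.00887, edgeR), so a gene of the sorting gate moved with the members.

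The labelled cell type was checked with marker genes, whose part in the results was not tested. Of 14 HSC markers, 8 were higher, 1 was lower (Hlf) and 5 did not pass. Over all genes tested, for this list and those below, 25.5% were higher and 25.0% were lower. The summed level of the HSC markers was 2031 to 2168 CPM in Ctrl and 2351 to 2382 CPM in l-FA. Of this, Kit alone had a mean of 1067 CPM in Ctrl and 1157 CPM in l-FA. Kit had a mean of 85.8 FPKM. RNA of 2 genes whose proteins the sort gates out was abundant, with mean levels of 149 FPKM for Cd34 and 158 FPKM for Flt3 (CD135), and Flt3 was higher in l-FA by 0.64 on the log2 scale. All 14 neutrophil and monocyte markers passed the test, 11 lower and 3 higher, and their summed level was 23460 to 24300 CPM in Ctrl and 6238 to 6551 CPM in l-FA, a ratio of 0.269, most of it from Mpo. Of 7 listed dendritic cell markers, 5 were tested, 4 higher and 1 lower, and the summed level of the 7 was 764 to 772 CPM in Ctrl and 1181 to 1217 CPM in l-FA, most of it from Flt3. Itgax (CD11c) rose by 2.09 on the log2 scale, Ccr9 by 1.03 and Cox6a2 by 0.995, each at 28 to 266 counts in a library, while Siglech, which marks plasmacytoid dendritic cells, had 10 to 31 counts and was lower. For B cells, the summed level was 55.6 to 55.9 CPM in Ctrl and 63.2 to 66 CPM in l-FA, most of it from Cd79b, and Pax5 had at most 1 count. For T and NK cells it was 549 to 570.3 CPM in Ctrl and 310 to 320 CPM in l-FA, most of it from Nkg7, and Cd3e had 0 to 10 counts. Of the 3 genes of this list that were tested, Nkg7 and Klrb1c were lower. Cd4 was higher, by 1.76 on the log2 scale (adjusted p = 0.000492, edgeR). Erythroid markers summed to 50.8 to 57.0 CPM in Ctrl and 65.7 to 66.7 CPM in l-FA, and megakaryocyte markers to 210 to 220 CPM and 297 to 304 CPM.

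**Figure D4:**
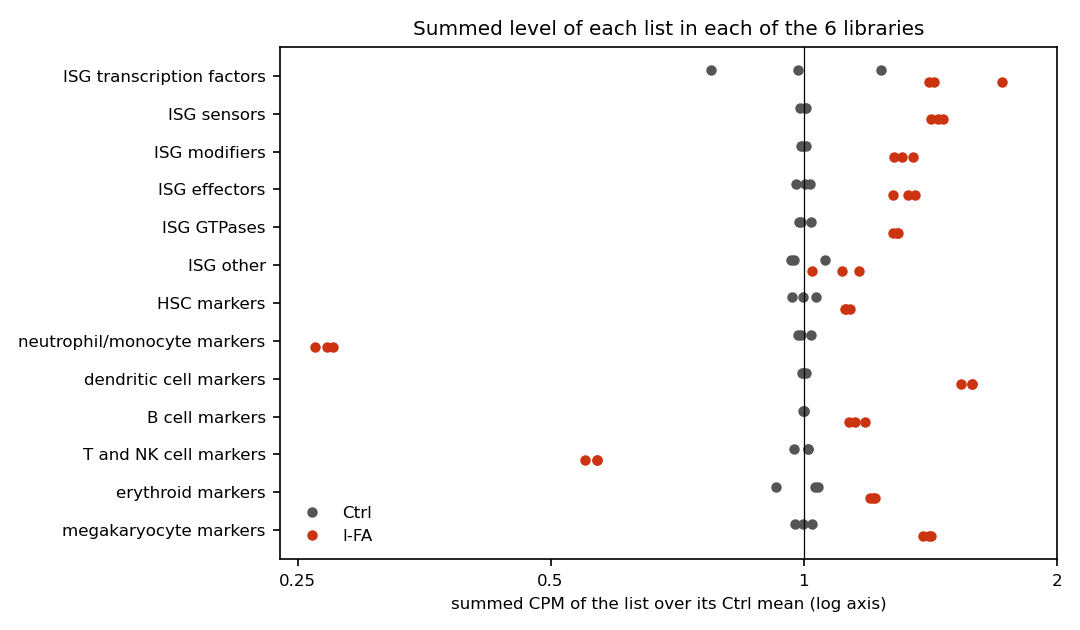
Summed CPM of each role group of interferon-stimulated genes and of each cell type marker list (y axis), divided by the list's Ctrl mean (x axis, log scale), in each of the 3 Ctrl and 3 l-FA libraries. The l-FA points lie above all Ctrl points for 5 of the 6 role groups and overlap them for the other members, while neutrophil and monocyte markers lie at 0.269 of the Ctrl mean.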

How the data were processed

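Amplified cDNA of sorted HSCs was sequenced in 3 libraries of each group. For each library the authors deposited unnormalized whole-number counts per gene. Their deposited FPKM values derive from those counts and were used here for levels per length. The submitters' processing notes name HISAT2, SAMtools 1.3.1, StringTie, edgeR and the build GRCm39, with no roles, and the study's methods name DESeq2. Groups came from the labels. Replicate numbers are shared between groups, but the labels do not pair them, and the deviations of same-numbered libraries correlated at 0.019, -0.013 and -0.05.

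The counts were analysed in R 4.3.3 by edgeR 4.0.16 (TMM, filterByExpr, glmQLFit, glmQLFTest), with Benjamini-Hochberg adjustment over 16520 of 27198 genes, as in the paper at an adjusted p of 0.05 and a fold of 2. The standard error is the size of the log2 fold change over the square root of F. The common biological coefficient of variation was 0.134. The code was tested on simulated counts. Total counts were 19287735 to 20380610 per library. The cDNA was amplified and no use of molecular identifiers is stated, so reads cannot be taken as independent and floors cover counting error only. A floor is 3 counts per library.

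The members, the role groups, the pathway and marker lists and all tests were chosen with earlier results of these data known, so no list was tested as a set. Values in every library are given for the 3 members of each role group with the largest change past the threshold (mean count at least 50), members that were lower, the 5 highest by FPKM, for each role group the most abundant member that did not pass, and fixed pathway genes, of which some are not reported here. Irf1 was added. Further members are given by their fold change. Alternatives were upper-quartile or RLE scaling, DESeq2 1.42.0, a minimum of 10 counts in each library, no filter, the replicate block, a glmTreat test against a 1.2-fold change, and leaving out each library. Shared 100-base stretches were counted in GENCODE M21 transcripts of GRCm38. Promoter windows and start sites are from RefSeq (GRCm38.p6), matched by symbol, for 37 of the 50 members.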

Additional observations from a re-analysis of the deposited data

How the results depend on the processing

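Of 600 member results under 12 alternative fits, not counting the test against a 1.2-fold change, 564 kept their direction and their side of the threshold, 13 lost the call, 13 gained it and 10 changed sign, in 12 members together. Of the 38 members that were higher, 36 passed in each of these fits, and Ifih1 and Samhd1 did not. With each library left out in turn, 36 to 40 members were higher, 0 to 1 were lower, 11 were above 2-fold in every case, and 36 to 42 pathway genes were higher and 4 to 6 lower. The median log2 fold change of the members was then 0.43 to 0.49, that of the transcription factors 0.63 to 0.91, of the sensors 0.45 to 0.52, of the modifiers 0.53 to 0.56, of the effectors 0.66 to 0.70, of the GTPases 0.34 to 0.37 and of the other members 0.23 to 0.36. With the replicate block, 37 members were higher, 1 was lower and 11 were above 2-fold. Upper-quartile scaling gave medians of 0.38 for the GTPases and 0.32 for the other members and shifted all genes by 0.024. The test against a 1.2-fold change left 29 members and 30 pathway genes higher and 0 members and 3 pathway genes lower, and at least 10 counts in every library left 4 pathway genes lower. ISRE letters on the gene's own strand stood in 29.7% of member windows, beside 2.06% of all genes. Members and one receptor gene with log2 fold changes near 0 changed sign, namely Adar (-0.0032 without a filter, -0.012 with the replicate block, and -0.084 to 0.14 with a library left out), Ly6e (-0.20 to 0.14), Usp18 (-0.016 to 0.071), Bst2 (-0.0053 to 0.094) and Ifngr2 (-0.020 to 0.046). The cause was not tested. The counts of members without overlapping genes and without a library apart, given in the report, were added after seeing the data.

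With 3 libraries a group and an unknown number of mice, the spread between mice is not known. Among the members past the threshold, Mx2, Ifit3b and Ifi204, which have the fewest counts, have the largest standard errors. Reads from stretches that paralogs share cannot be told apart.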
